A study of Oryza sativa Japonica Group with 32 samples.

Results

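Plumules of germinated rice were compared with the developing embryo, that is, the embryonic shoot after germination with the whole embryo while the seed was still filling. The plant was the japonica cultivar Nipponbare, grown at 28 °C. Plumules were harvested 3 days after germination, either in the light (16 h of light in each 24 h) or in the dark (0 h of light), and embryos were taken 10 days after anthesis. Messenger RNA was selected by its polyA tail from every tissue, and each tissue gave 2 libraries treated for m6A-SAC-seq and 2 untreated libraries. The comparison used 12 of the 32 samples of the series: the 4 light plumule, 4 dark plumule and 4 embryo samples. Expression came from the untreated libraries, 4 of plumules (light and dark taken as 1 group) and 2 of embryo, out of 16. m6A came from 1 pooled fraction per tissue and site, without replicates. Tissue, age and the way the plants were grown changed together between the groups, and their parts in any difference cannot be told apart.

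The plumule holds the shoot meristem and the first leaves of the seedling, wrapped by the coleoptile, and after germination it grows mainly by cell elongation and builds chloroplasts once it meets light. The embryo in a filling seed is laying down oil bodies and late embryogenesis abundant (LEA) proteins, which protect cells as the seed dries, under transcription factors of the VP1 and FUSCA3 type and the hormone abscisic acid (ABA). N6-methyladenosine (m6A) is a methyl mark on adenosines inside messenger RNA, most often in the consensus DRACH (D is A, G or T, R is A or G, H is A, C or T). m6A-SAC-seq labels m6A with the methyltransferase MjDim1 so that reverse transcriptase misreads it, and spike-in probes convert the misread rate into a fraction of modified molecules from 0 to 1.

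The untreated plumule libraries held 13062291 to 14578305 reads and the embryo libraries 14655188 and 15495907, as worked out from TPM (transcripts of a gene among all transcripts, scaled to a fixed total) and gene length. On the log2(TPM + 1) scale the 4 plumule libraries correlated with each other at 0.993 to 0.995 (Pearson, across genes), the 2 embryo libraries at 0.995, and plumule with embryo libraries at 0.730 to 0.737. Markers of embryo were at hand in the embryo libraries: OLE16 (Os04g0546500), an oleosin coating oil bodies, stood at 15829 and 14091 TPM in embryo and at 0.842 to 1.89 TPM in plumules. Embryo libraries also held endosperm transcripts. Of 42 endosperm marker genes, mostly prolamins, glutelins and starch enzymes, 39 passed the filter on low values and 3 stood at 0 in every plumule and embryo library, and the list summed to 20951 and 21558 TPM against 40.3 to 47.3 TPM in plumules and 275690 and 259630 TPM in the endosperm libraries. Of these markers 34 were lower in plumules than in embryo (87.2% of those tested, against 9.81% of all genes). Embryo carried 0.770% to 14.4% of the endosperm level of each of the 34 (median 8.45%). The part of endosperm RNA in the genes higher in embryo was not tested. In whole-tissue RNA, fewer cells of a type and less RNA per cell cannot be told apart.

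Plumules and embryo differed in a large share of the genes expressed. Of 28562 genes tested (at least 1 TPM in at least 2 libraries), 9350 were called at an adjusted p under 0.05 and a difference of at least 1 on the log2 scale, or 32.7% of genes. Plumules were higher for 6548 (22.9%) and lower for 2802 (9.81%). The adjusted p alone was under 0.05 for 70.5% of genes, and the groups did not overlap for 76.5%. The median gene was 0.20 higher in plumules on the log2(TPM + 1) scale, and the 10 most abundant genes took 18.5% and 18.8% of TPM in embryo and 8.22% to 9.08% in plumules. With TMM scaling, which left a median of 0.02, 5255 genes were higher and 3798 lower, so that 58.05% of calls were higher against 70.03% under the deposited TPM. Light and dark plumules were close: the median absolute difference between them was 0.08 on the log2 scale against 0.60 between plumules and embryo, and 2 genes passed the same call between light and dark. Of the genes lower in plumules, 711 (25.4%) had a higher mean in endosperm than in embryo, and 2091 did not.

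Oil body and storage genes had the lowest median difference of the lists. For OLE16 the difference, plumules minus embryo, was -12.72 ± 0.27 (SE) on the log2(TPM + 1) scale (limma, adjusted p = 6.92e-14), the scale of all differences below. OLE18 (Os03g0699000), the other major rice oleosin, measured 13088 and 10519 TPM in embryo and 3.23 to 4.43 TPM in plumules, with no overlap. Os1-CysPrxA (Os07g0638300), a peroxiredoxin of seeds, measured 6031 and 6275 TPM in embryo and 1.45 to 2.63 TPM in plumules. The tonoplast aquaporin OsTIP3 (Os10g0492600; the deposited symbol stops at the family number), a member of the seed storage vacuole type, measured 2664 and 2681 TPM in embryo and 1.74 to 2.54 TPM in plumules. All 6 oil body and storage genes of the list were lower in plumules (100%, against 9.81% of all genes). The median difference was -10.36, against 0.20 over all genes tested. None of these 6 had more TPM in endosperm than in embryo, but all had over 10% of the embryo level there.

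LEA and dehydrin genes followed. Of 31 members tested, 24 were lower in plumules (77.4%, against 9.81% of all genes) and 4 were not called. Another 3 were higher (9.68%, against 22.9% of all genes), and the median difference was -5.98. Em* (Os05g0349800), the rice gene of the early-methionine-labelled LEA protein, measured 7256 and 6868 TPM in embryo and 3.69 to 7.52 TPM in plumules. OsLEA20 (Os01g0159600) measured 3547 and 3669 TPM in embryo and 1.33 to 2.08 TPM in plumules, a difference of -10.42 ± 0.16 (SE, adjusted p = 1.56e-16). OsLEA3 (Os06g0324400) measured 1498 and 1524 TPM in embryo and at most 0.521 TPM in plumules. The reverse held for OsLEA11 (Os03g0400700), at 4.81 to 6.77 TPM in plumules and 0 and 0.150 TPM in embryo, and for the dehydrin LIP9 (Os02g0669100), at 71.1 to 92.7 TPM in plumules and 19.7 TPM in both embryo libraries. The summed level of the list was 29310 ± 441 TPM (SD, n = 2) in embryo and 527 ± 40.5 TPM (SD, n = 4) in plumules. Among the 24 lower members, 17 had no more than 10% of their embryo level in endosperm.

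The regulators of embryo maturation were lower in plumules too. Of 9 tested, 8 were lower in plumules (88.9%, against 9.81% of all genes) and none was higher, with a median difference of -4.91. OsMFT2 (Os01g0111600), of the MOTHER OF FT AND TFL1 family that acts on seed germination, measured 1442 and 1480 TPM in embryo and at most 0.611 TPM in plumules. Vp1* (Os01g0911700), the B3 factor of seed maturation, measured 125 and 129 TPM in embryo and 2.999 to 3.57 TPM in plumules. OsLFL1 (Os01g0713600), a LEC2/FUSCA3-like B3 factor, measured 45.2 and 45.8 TPM in embryo and 0.186 to 0.471 TPM in plumules. SDR4 (Os07g0585700), a seed dormancy gene, measured 190 and 166 TPM in embryo and at most 0.175 TPM in plumules. OsHAP3D (Os06g0285200), a CCAAT-binding factor subunit, was not called: it stood at 0.458 and 0.196 TPM in embryo and at 22.8 TPM in endosperm. OsMFT1 (Os06g0498800) was called (220 and 208 TPM in embryo, 1.13 to 4.10 TPM in plumules) but was higher still in endosperm, at 322 TPM.

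The 10 abundant genes with the largest fall in plumules together took 15.1% of all TPM in each embryo library and at most 0.00124% in a plumule library. The top 4 carry the symbol OsEnS, which the annotation gives no function for here. OsEnS-115 (Os08g0127900) measured 34666 and 34570 TPM in embryo, 0.0971 to 0.403 TPM in plumules and 22.5 TPM in endosperm. OsEnS-146 (Os11g0582400) measured 26948 and 28526 TPM in embryo, OsEnS-51 (Os03g0663800) 23408 and 24626 TPM, and OsEnS-57 (Os03g0793700) 19223 and 19994 TPM, each under 0.668 TPM in every plumule library. Endosperm held 2781 to 3270 TPM of these last 3. The others were OLE16, OLE18, Os1-CysPrxA, the prolamin Prol-01 (Os03g0766100), the metallothionein OsMT4 (Os10g0542100) and an alpha-amylase. Prol-01 measured 5919 and 6079 TPM in embryo but 69954 TPM in endosperm, whereas OsMT4 measured 3033 and 2849 TPM in embryo and 191 TPM in endosperm.

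**Figure D1:**
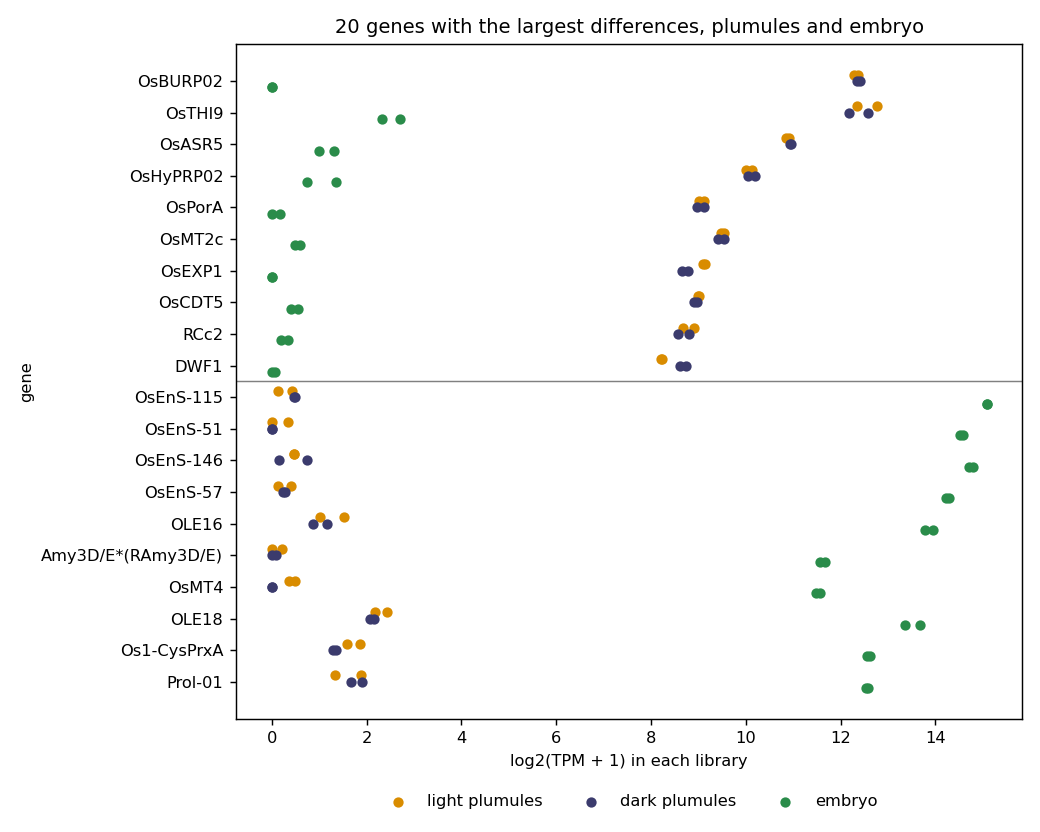
Expression of the 20 named genes in each untreated library, as log2(TPM + 1), with 10 genes higher in plumules above the line and 10 lower in plumules below it. Points are single libraries of light plumules, dark plumules and embryo (2 each); no plumule point of any gene overlaps its embryo points.

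Genes of starch-degrading enzymes, which free sugar from reserves during germination, were mostly lower in plumules than in the developing embryo. Of 9 tested, 7 were lower (77.8%, against 9.81% of all genes) and 1 was not called. The remaining 1 was higher (11.1%, against 22.9% of all genes). The alpha-amylase Amy3D/E*(RAmy3D/E) (Os08g0473600) measured 3044 and 3263 TPM in embryo, at most 0.155 TPM in plumules and 2.07 TPM in endosperm, a difference of -11.55 ± 0.12 (SE, adjusted p = 8.47e-18). The beta-amylase OsBamy2 (Os03g0141200) measured 262 and 265 TPM in embryo and 73.9 to 84.8 TPM in plumules. Only alphaAmy10-C (Os02g0765400) was higher in plumules, at 2.39 to 4.07 TPM against 0 and 0.0583 TPM. Alpha-amylase genes are a family of similar sequences, and no source here says how the counting split reads among them.

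On the plumule side stood cell wall genes. OsEXP1 (Os04g0228400), an expansin that loosens walls for elongation, measured 560 and 546 TPM in light plumules, 439 and 402 TPM in dark plumules and 0 TPM in both embryo libraries, at least 2032-fold higher in plumules when embryo is set to 3 reads per library. OsEXP2 (Os01g0823100) measured 562 to 599 TPM in plumules and 3.61 and 2.91 TPM in embryo. OsXTH20 (Os10g0545500), a xyloglucan endotransglucosylase that cuts and rejoins wall polymers, measured 247 to 296 TPM in plumules and 0.216 and 0.462 TPM in embryo. Of 54 wall-loosening genes tested, 30 were higher in plumules (55.6%, against 22.9% of all genes) and 17 were not called. Another 7 were lower (13.0%, near the 9.81% of all genes), and the median difference was 1.67. With edgeR or DESeq2 on reads 12 were lower. Among the lower ones OsXTH18 (Os06g0696500) measured 70.6 and 68.8 TPM in embryo and 3.98 to 5.93 TPM in plumules.

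Cellulose synthases, which spin the main wall polymer, were also higher. Of 9 tested, 6 were higher in plumules (66.7%, against 22.9% of all genes), none was lower and 3 were not called. CESA7 (Os10g0467800) measured 35.6 to 41.6 TPM in plumules and 0.0989 and 0.132 TPM in embryo, and OsCesA4 (Os01g0750300) 39.8 to 42.6 TPM against 1.84 and 1.94 TPM. Both are known for thick secondary walls. OsCesA8 (Os07g0208500), of primary walls, measured 309 to 332 TPM in plumules against 43.3 and 43.0 TPM, a difference of 2.87 ± 0.08 (SE, adjusted p = 1.43e-13). OsCesA2 (Os03g0808100) was not called, at 31.6 to 36.9 TPM in plumules and 53.6 and 54.1 TPM in embryo.

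Genes of photosynthesis were mostly higher in plumules. Of 33 tested, 31 were higher in plumules (93.9%, against 22.9% of all genes), with a median difference of 5.90. CAB1R (Os09g0346500), a light-harvesting chlorophyll protein, measured 1062 and 939 TPM in light plumules, 1430 and 1459 TPM in dark plumules, and 2.40 and 3.01 TPM in embryo. RbcS3 (Os12g0291100), a small subunit of Rubisco, measured 695 to 775 TPM in plumules and 2.71 and 5.02 TPM in embryo. RbcS1 (Os02g0152400) went the other way, at 1035 and 1014 TPM in embryo and 104 to 141 TPM in plumules, a difference of -3.03 ± 0.15 (SE, adjusted p = 1.39e-10). RbcS1 is known in rice for expression outside leaf blades. The summed level of the list was 7729 and 6912 TPM in light plumules, 9525 and 9279 TPM in dark plumules, and 1107 and 1098 TPM in embryo, most of it RbcS1. Endosperm libraries held 5685 and 6381 TPM of the same list.

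Chlorophyll synthesis genes went with them, 9 of 10 higher in plumules (90%, against 22.9% of all genes) and none lower. OsPorA (Os04g0678700), a protochlorophyllide oxidoreductase of the type known from dark-grown seedlings, measured 554 and 513 TPM in light plumules, 551 and 503 TPM in dark plumules, and 0 and 0.131 TPM in embryo. Light and dark plumules overlapped for this gene. FGL (Os10g0496900), the other protochlorophyllide oxidoreductase, measured 72.8 to 96.1 TPM in plumules and 1.89 and 1.77 TPM in embryo. YGL1 (Os05g0349700), chlorophyll synthase, was not called, at 67.4 to 76.3 TPM against 50.7 and 43.7 TPM.

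The other abundant genes with the largest rise in plumules were of several families. OsBURP02 (Os05g0217800), of the plant BURP-domain family, measured 4972 to 5455 TPM in plumules and 0 TPM in both embryo libraries, at least 26828-fold higher by the same 3-read floor. OsTHI9 (Os06g0514800), a thionin, measured 4645 to 6970 TPM in plumules and 3.98 and 5.51 TPM in embryo. OsASR5 (Os11g0167800), of the family induced by ABA, stress and ripening, measured 1851 to 1978 TPM in plumules and 0.997 and 1.49 TPM in embryo. OsMT2c (Os01g0974200), a metallothionein, measured 680 to 749 TPM in plumules and 0.505 and 0.405 TPM in embryo, the reverse of the metallothionein OsMT4. RCc2 (Os10g0551800), first described from roots, measured 377 to 480 TPM in plumules and 0.270 and 0.144 TPM in embryo. OsHyPRP02, OsCDT5 and DWF1 complete the set of 10, between 294 and 1175 TPM in plumules and at most 1.56 TPM in embryo. OsDT11 (Os11g0211800) was among the most abundant genes of both tissues and was not called, at 16335 to 19190 TPM in plumules and 10290 and 10112 TPM in embryo.

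Water channel genes were mostly higher in plumules. Of 28 aquaporins tested, 19 were higher in plumules (67.9%, against 22.9% of all genes) and 7 were not called. The 2 lower ones (7.14%, against 9.81% of all genes) were both of the TIP3 type. Calls differed within the TIP1, PIP2 and NIP1 types. For example, OsTIP1 (Os03g0146100) was higher by 2.01, while OsTIP1 (Os01g0975900) was not called (-0.27). OsPIP2 (Os02g0629200), a plasma membrane channel, measured 161 to 199 TPM in plumules and 0.0672 and 0.216 TPM in embryo. OsTIP4 (Os01g0232000) measured 88.4 to 99.9 TPM in plumules and 0.784 and 0.959 TPM in embryo.

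Cell division genes were measured in both tissues. Of 22 cell division genes tested, 11 were higher in plumules (50%, against 22.9% of all genes). None was lower (against 9.81% of all genes), and the median difference was 0.91. OsPCNA (Os02g0805200), the clamp of DNA polymerase, measured 186 to 199 TPM in plumules and 70.9 and 71.3 TPM in embryo, and CycB1 (Os05g0493500), a mitotic cyclin, 64.6 to 67.3 TPM against 20.7 and 22.5 TPM. The kinase CDKB2 (Os08g0512600) was not called, at 96.2 to 103 TPM in plumules and 94.1 and 88.5 TPM in embryo. With TMM scaling 6 genes of this list were higher instead of 11, and 5255 of all 28562 genes instead of 6548.

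Meristem and patterning genes went both ways. Of 25 tested, 13 were not called, 6 were higher (24%, against 22.9% of all genes) and 6 lower (24%, against 9.81% of all genes). With TMM scaling 3 were higher. The lower ones included OsWOX6 (Os03g0325600), a WUSCHEL-related homeobox gene, at 31.6 and 32.5 TPM in embryo and 0.268 to 0.430 TPM in plumules, and WOX11 (Os07g0684900), known for crown roots, at 29.9 and 32.8 TPM in embryo and 3.67 to 4.23 TPM in plumules. The higher ones included OsSHR2 (Os03g0433200), a SHORT-ROOT factor, at 3.62 to 5.05 TPM in plumules and 0.822 and 0.842 TPM in embryo. The meristem gene OSH1 (Os03g0727000) was not called, at 6.62 to 8.14 TPM in plumules and 14.0 and 13.7 TPM in embryo.

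Hormone genes were counted in 3 lists, which were not tested against each other. Of 98 auxin response genes 45 were higher in plumules (45.9%, against 22.9% of all genes) and 36 were not called. Another 17 were lower (17.3%, against 9.81% of all genes). OsIAA13 (Os03g0742900), an Aux/IAA repressor, stood at 456 to 599 TPM in plumules against 8.36 and 9.18 TPM in embryo. OsSAUR8 (Os02g0445100), a small auxin-up RNA, measured 53.0 to 59.0 TPM in plumules and 0.658 and 0.703 TPM in embryo, while the efflux carrier OsPIN2 (Os06g0660200) measured 5.55 and 4.86 TPM in embryo and 0.130 to 0.613 TPM in plumules. Of 28 ABA genes 8 were higher (28.6%, against 22.9% of all genes) and 9 lower (32.1%, against 9.81% of all genes). The SnRK2 kinase SAPK5 (Os04g0691100) measured 41.3 to 46.8 TPM in plumules and 2.33 and 2.22 TPM in embryo. The receptor OsPYL/RCAR8 (Os06g0528300) stood at 0 TPM in all plumule libraries, at 13.9 and 12.1 TPM in embryo and at 119 TPM in endosperm, at least 27.4-fold higher in embryo than in plumules by the 3-read floor. Of 16 gibberellin genes 3 were higher, near the 22.9% of all genes (6 with a pseudocount of 0.1 and 5 with edgeR), among them GA2OX4 (Os05g0514600), at 8.91 to 13.6 TPM in plumules and 0.122 and 0.0652 TPM in embryo.

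Sugar and low-oxygen genes divided by isoform. Sucrose synthase SUS1 (Os03g0401300) measured 2411 to 2495 TPM in plumules and 693 and 725 TPM in embryo, while SUS3 (Os07g0616800) measured 1.84 to 2.35 TPM in plumules, 139 and 148 TPM in embryo and 398 TPM in endosperm. The fermentation enzymes alcohol dehydrogenase ADH1 (Os11g0210300), at 334 to 352 TPM in plumules and 1752 and 1858 TPM in embryo, and pyruvate decarboxylase pdc2* (Os03g0293500), at 190 to 196 TPM in plumules and 1259 and 1308 TPM in embryo, were lower in plumules. The haemoglobin HB2 (Os03g0226200) was higher, at 122 to 150 TPM against 10.0 and 11.9 TPM. Of the 18 genes in this list 9 were higher (50%, against 22.9% of all genes). Another 7 were lower (38.9%, against 9.81% of all genes). Among 20 clock and light genes 7 were higher (35%, against 22.9% of all genes). Another 2 were lower (10%, near the 9.81% of all genes), and the median difference was 0.02. The higher ones were led by the cryptochrome OsCRY1a (Os02g0573200) at 9.48 to 11.7 TPM against 0.354 and 0.442 TPM. The lower ones were led by the pseudo-response regulator OsPRR12 (Os04g0348600) at 0.172 to 1.07 TPM against 16.1 and 17.5 TPM.

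**Figure D2:**
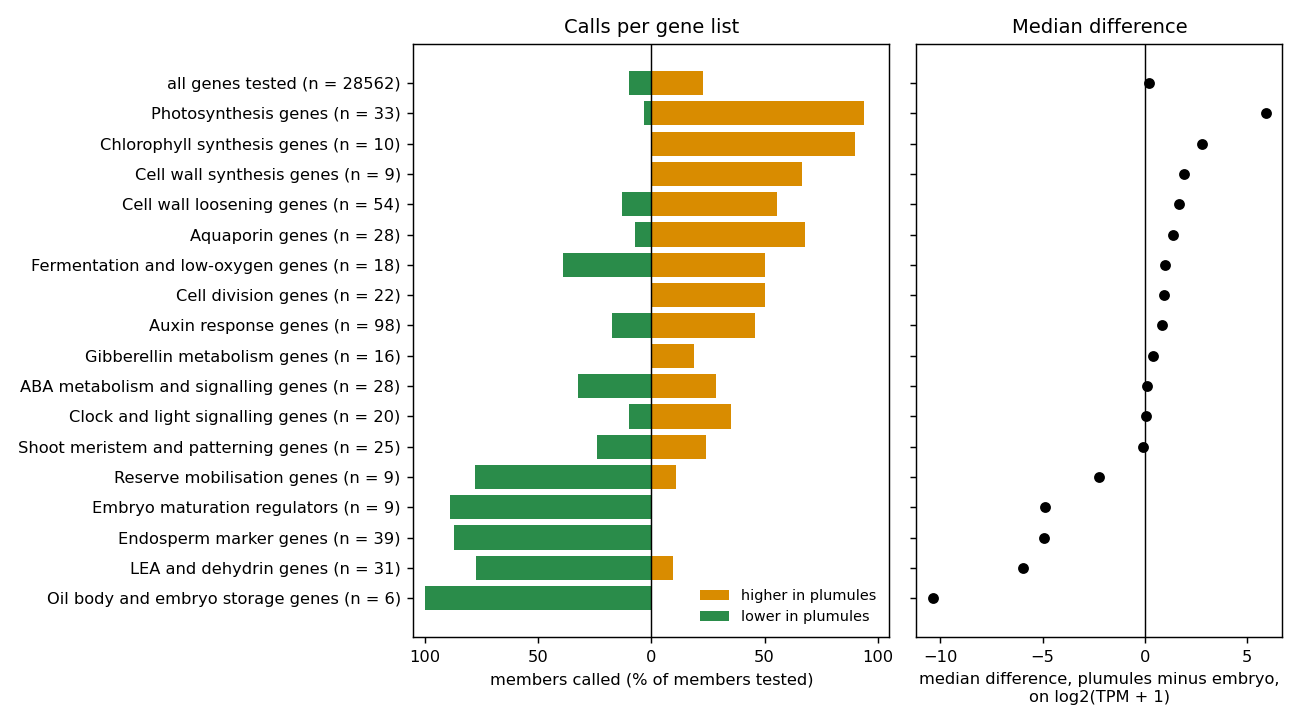
Share of the tested members of each gene list called higher (right of 0) or lower (left of 0) in plumules than in embryo in the left panel, and the median difference of the list on log2(TPM + 1) in the right panel. Over all 28562 genes 22.9% were higher and 9.81% lower; photosynthesis genes lie farthest to one side (median 5.90) and oil body genes farthest to the other (-10.36).

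The lists describe their own members, and no list was tested against other genes. Where a gene stood at 0 in 1 group, setting it to 3 reads moved no list's median by more than 0.24.

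For m6A, 126506 of 205691 listed sites (61.5%), in 14478 genes, had at least 20 reads in light plumules, dark plumules and embryo. Median depth at these sites was 94 reads in light plumules, 92 in dark plumules and 79 in embryo. The mean fraction was 0.237 in light plumules, 0.234 in dark plumules and 0.245 in embryo, so the plumule mean lay 0.00928 below embryo while light and dark lay 0.00288 apart. The median site difference was 0. The mutated reads behind each fraction are not in the table, so no interval is given and no site was tested.

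The sites flagged by the authors as detected in all 3 tissues differed more. These were 23291 sites, with a mean fraction of 0.484 in light plumules, 0.484 in dark plumules and 0.523 in embryo. The difference of -0.0392 compares with 0.000563 between light and dark. Plumules were at least 0.2 below embryo at 2457 of these sites and at least 0.2 above at 875, while light was at least 0.2 above dark at 1094 and below at 1138. With light alone the counts were 2718 below and 1079 above, and with dark alone 2808 and 1079. Over all 126506 sites, 18.2% were past 0.2 for the plumule mean against embryo (10.1% lower, 8.06% higher), 19.6% for light against embryo (8.95% higher), 19.5% for dark against embryo (8.54% higher) and 15.4% for light against dark (7.84% higher). The count between plumules and embryo over all sites is thus not far above that between the 2 kinds of plumule. At a depth of at least 100, the sites flagged in all 3 tissues (10856) still gave 776 lower and 273 higher against 301 and 317 between light and dark.

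The difference was larger in the 3′ UTR than in the coding sequence, where its sign was the opposite. Over all sites with 20 reads, the mean fraction in the 3′ UTR was 0.320 in plumules and 0.355 in embryo (44382 sites), while in the coding sequence it was 0.162 in plumules and 0.150 in embryo (50364 sites). In the 5′ UTR it was 0.211 and 0.192 (2701 sites). Among the sites flagged in all 3 tissues the 3′ UTR stood at 0.521 and 0.573 (14066 sites), with 1766 sites at least 0.2 lower in plumules and 546 higher. The coding sequence stood at 0.353 and 0.350 (4458 sites), with 139 lower and 130 higher. In the 5′ UTR the direction turned, at 0.410 in plumules and 0.431 in embryo (170 sites). Flagged sites outside these regions were lower in plumules too. Intergenic sites stood at 0.520 in plumules and 0.568 in embryo (1559 sites), and incomplete transcripts at 0.488 and 0.523 (2592 sites). Introns stood at 0.510 and 0.556 (107 sites). The sites of 1 transcript share its reads and are not replicates.

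**Figure D3:**
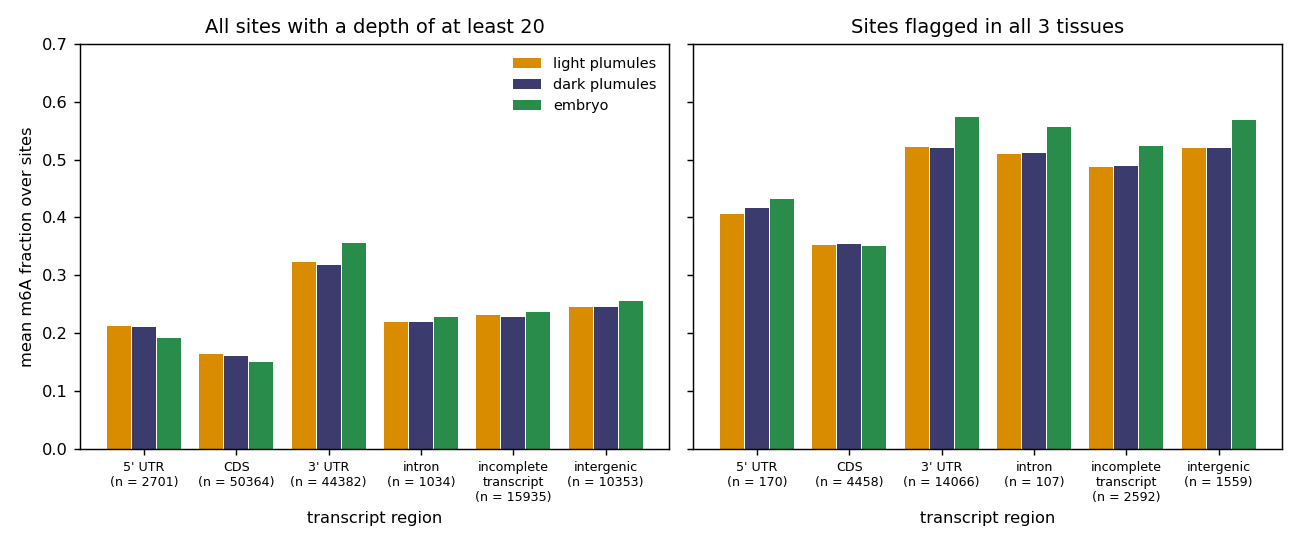
Mean m6A fraction by transcript region in light plumules, dark plumules and embryo, over all sites with a depth of at least 20 (left) and over sites flagged in all 3 tissues (right), each bar 1 pooled value per tissue with no error. Embryo exceeds both plumules in the 3′ UTR (0.573 against 0.521 in the right panel) and not in the coding sequence (0.350 against 0.353). In the right panel embryo also exceeds both plumules in every other region, as in intergenic sites (0.568 against 0.520).

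By motif, the difference depended on which sites were averaged. Over all sites with 20 reads it was -0.0151 for DRACH (52438 sites), -0.0362 for GGAU motifs (5001), -0.00253 for other GAU motifs (21684) and 0.0000174 for motifs outside the named classes (36956). Over sites flagged in all 3 tissues, DRACH motifs averaged 0.522 in plumules and 0.565 in embryo (14020 sites), GGAU motifs 0.384 and 0.441 (1863 sites), and motifs outside the named classes 0.658 and 0.673 (2715 sites). The motifs below are the DRACH 5-mers with the smallest and largest differences among those with at least 200 such sites, shown to compare the bases around the modified adenosine, which is in capitals.
agAca: plumule mean 0.459, embryo 0.479, 2351 sites
gaAca: plumule mean 0.640, embryo 0.661, 375 sites
tgAct: plumule mean 0.493, embryo 0.562, 1218 sites
tgAcc: plumule mean 0.434, embryo 0.535, 403 sites
Every one of the 26 motifs with at least 200 such sites was lower in plumules, with differences from -0.101 to -0.00879. Light and dark plumules differed by at most 0.0237 for any of them. Within the coding sequence the flagged DRACH sites did not share this, at 0.301 in plumules and 0.299 in embryo (2143 sites), against 0.571 and 0.623 in the 3′ UTR (8992 sites).

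The naming rule asked for a depth of at least 100 in all 3 tissues, light and dark within 0.1, and 1 site per gene. It also asked for a detection flag in at least 1 of the 3 tissues and a gene symbol. By this rule the 16 sites with the largest differences all lay outside the named motif classes. Each was close to 0 in 1 tissue and to 1 in the other. Ties, which included all 8 lower sites, were ordered by chromosome and position. Under these limits, leaving out that of 1 site per gene, 19 sites stood at 0 in plumules and at least 0.9 in embryo. Another 6 stood at 0 in embryo with a plumule mean of at least 0.9. Among the 16 was a site in ADC1 (Os06g0131300), arginine decarboxylase, at chr6:1676929 in the 5′ UTR (IRGSP-1.0, minus strand, motif ccAtc). Its fractions were 1 and 1 in plumules and 0 in embryo at depths of 173, 199 and 229. The reverse was seen at chr10:11582589 in the coding sequence of OsERS1 (Os10g0369000), an ethylene receptor, on the minus strand (tcAgg), with 0 and 0 in plumules and 1 in embryo at depths of 181, 184 and 200. A deeply read one was in OsPIP2a (Os07g0448800), an aquaporin, at chr7:15406470 in the 5′ UTR on the plus strand (ccAcc). It stood at 1 and 1 in plumules and 0.0895 in embryo at depths of 7268, 7708 and 2154. The authors' flag marked the ADC1 site as detected in dark plumules only and the OsPIP2a site in light plumules only. Sites outside the named classes are also the least steady between the plumules: 27.7% of them were past 0.2 between light and dark, against 14.8% of DRACH sites. Embryo fractions were exactly 1 at 10.2% of them, against 5.605% of DRACH sites.

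The same rule limited to DRACH motifs, added after these values were seen, gave sites mostly in 3′ UTRs, and 7 of the 8 lower ones were there. The motifs of 4 are shown with the modified base in capitals.
OVP1: ggAca
OsGL1-8: ggAct
OsMADS22: taAcc
SEC61: gaAct
OVP1 (Os06g0644200), a vacuolar proton pump, had a site at chr6:26278108 (plus strand) with fractions of 0.265 and 0.291 in light and dark plumules and 1 in embryo, at depths of 916, 928 and 209. OsGL1-8 (Os07g0101500), of the family tied to leaf wax, had a site at chr7:90416 (plus strand) with 0.160 and 0.218 in plumules and 0.804 in embryo. Both genes were also higher in plumules, by 2.05 and 2.94 on the log2(TPM + 1) scale. OsFbox258 (Os05g0425700), with a site at 0.267 and 0.255 in plumules and 0.861 in embryo, was lower in plumules (difference of -1.05). The genes of the other lower sites were not called. OsMADS22 (Os02g0761000), a MADS-box factor, had a site at chr2:32044656 (plus strand) with 0.113 and 0.108 in plumules and 0.747 in embryo, and its expression was not called (0.15). SEC61 (Os09g0347700), named after the protein translocation channel, had a site at chr9:10915535 (minus strand) that was higher in plumules, at 0.583 and 0.585 against 0.197. The stress chaperone OsBiP1 (Os02g0115900) had a site at chr2:838784 (minus strand) at 0.872 and 0.849 in plumules and 0.536 in embryo, at depths of 1636, 1602 and 2693. The gene assigned to a site need not be its source: OsMT2d held a site with 141 to 377 reads although its own gene stood under 1 TPM in both tissues.

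**Figure D4:**
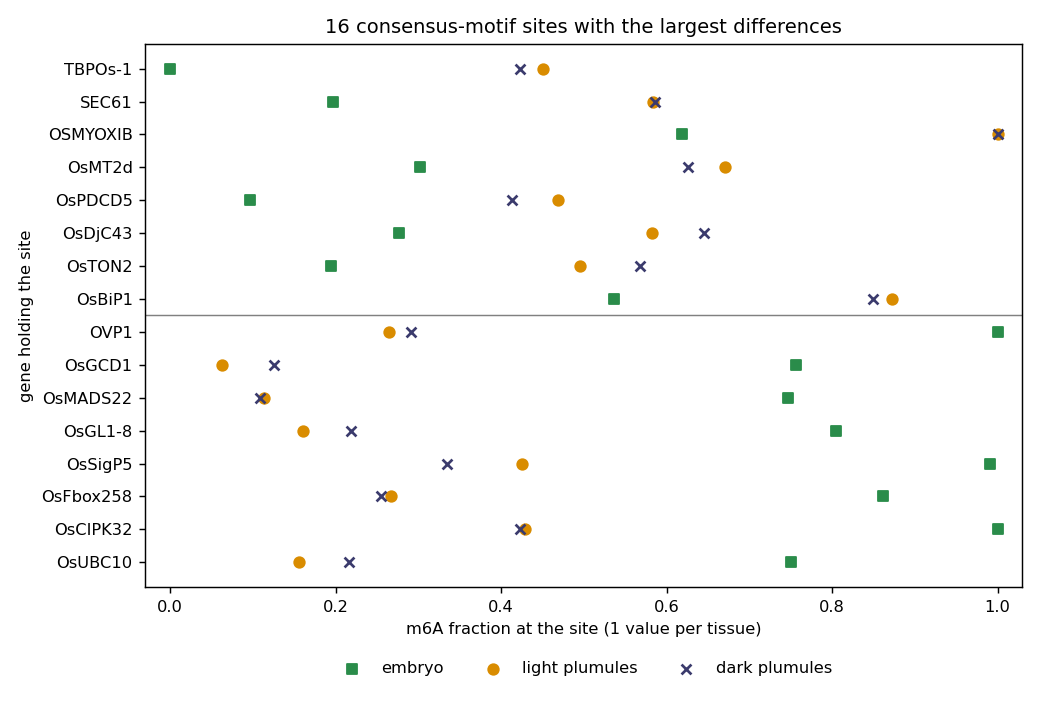
m6A fraction at the 16 DRACH sites with the largest differences, 8 higher in plumules (above the line) and 8 lower (below it), each with 1 value for light plumules, dark plumules and embryo. The 2 plumule values of a site lie within 0.1 of each other by the rule that chose the sites, and embryo lies at least 0.325 away from their mean.

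Of the sites in the gene lists, 33 in 23 genes met the same depth, flag and agreement limits and differed by at least 0.2. Of these 33, 28 were lower in plumules. Over all genes with a symbol, 559 sites were lower and 150 higher under the same limits, so the direction is not particular to the lists. Cellulose synthases gave 7 of the 33, all lower. Without the limits on depth and on light against dark, the list of cell wall synthesis genes held 15 sites at least 0.2 lower and 5 higher among 79 flagged in at least 1 tissue. OsCesA8 had 3, including chr7:5852932 in the 3′ UTR (minus strand, agAcc) at 0.425 and 0.350 in plumules and 0.936 in embryo. OsCesA3 (Os07g0424400) had a site at chr7:13741630 in the 3′ UTR (minus strand, atAct) at 0.173 and 0.263 in plumules and 0.769 in embryo. Its expression was higher in plumules by 1.88 on the log2(TPM + 1) scale. The 3′ UTR of the aquaporin gene OsPIP1 (Os04g0559700) had sites at chr4:28048328 (agAct) at 0.194 and 0.188 in plumules and 0.467 in embryo, and at chr4:28048343 (gtAct) at 0.258 and 0.225 against 0.519. Among hormone genes, the ABA kinase SAPK4 (Os01g0869900) had a 3′ UTR site at chr1:37714751 (taAct) at 0.161 and 0.199 in plumules and 0.674 in embryo. The auxin response factor OsARF1 (Os11g0523800) had one at chr11:18937136 (taAct) that was higher in plumules, at 0.289 and 0.310 against 0.0478.

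The Rubisco gene RbcS3 held sites of both directions inside its coding sequence. At chr12:11263010 (plus strand, cgAtc) the fractions were 0.00978 and 0.00991 in plumules and 0.498 in embryo, and at chr12:11263049 (ggAtt) they were 0.0208 and 0.0133 against 0.585. At chr12:11262712 (caAgt) they were 0.559 and 0.563 against 0.314. Plumule depths were 5876 to 6913 reads and embryo depths 147 to 210. Rubisco small subunit genes are near copies of each other, and in embryo RbcS1 stood at 1035 and 1014 TPM where RbcS3 stood at 2.71 and 5.02 TPM, so the origin of the embryo reads at these sites is uncertain.

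Whether sites with less m6A sat in genes with more expression depended on which sites were averaged. Over all sites with 20 reads in 14340 genes tested for expression, Spearman's rho between the mean m6A difference of a gene and its expression difference was 0.00413. Over sites flagged in all 3 tissues, in 8177 genes, it was -0.261. There, genes whose fraction was at least 0.2 lower in plumules (623) had a median expression difference of 0.60, and 35.8% were called higher in plumules and 2.09% lower. Genes at least 0.2 higher (194) had a median of -0.05, with 9.28% called higher and 15.98% lower, where 18.8% and 6.47% of all 8177 genes were called. The m6A difference between light and dark plumules gave a rho of -0.00960 over the same genes. Read depth moved with this relation: where plumules were at least 4 times deeper than embryo the flagged sites averaged 0.410 in plumules and 0.522 in embryo, and where embryo was at least 4 times deeper, 0.472 and 0.409. The part of depth and of the detection flag in the relation was not tested. Genes share libraries and are not independent, so rho is a description.

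**Figure D5:**
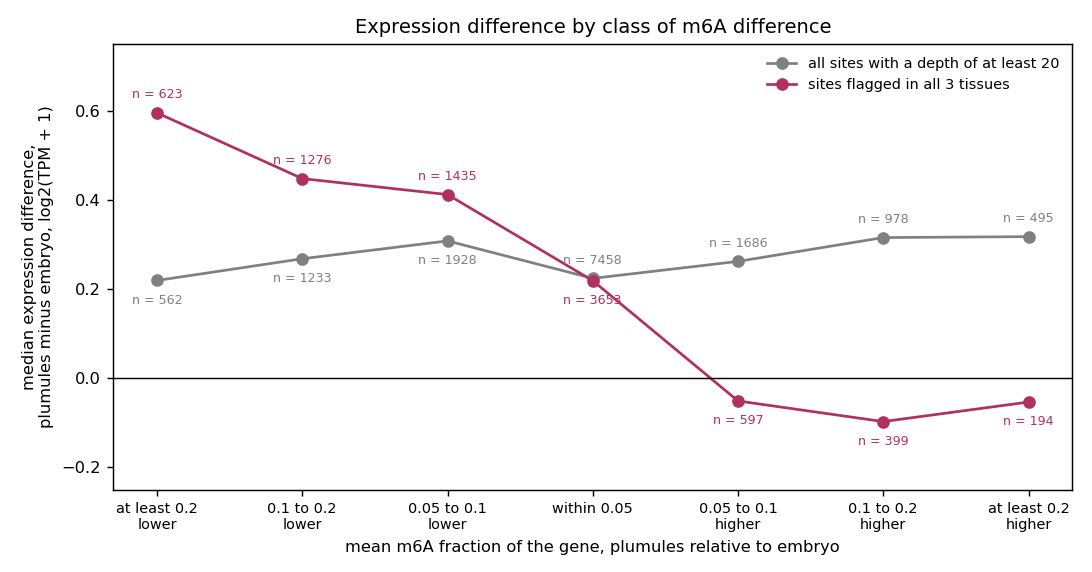
Median expression difference of genes (plumules minus embryo, log2(TPM + 1)) by class of their mean m6A difference, for all sites with a depth of at least 20 and for sites flagged in all 3 tissues; n is the number of genes in each class. For flagged sites the median is 0.60 in the lowest class and between -0.10 and -0.05 in the 3 classes higher in plumules, while all sites stay between 0.22 and 0.32.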

How the data were processed

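Per gene, TPM of each untreated library was deposited by the authors, and per m6A site, a fraction (0 to 1), a read count (depth) and a detection flag for each tissue, pooled over replicates. Sites came from their SAC-seq pipeline on IRGSP-1.0, with fractions calibrated on spike-in probes. Aligner and gene counter: not given in the sources used here. All plumule and embryo samples were matched to columns by name. No expression column was left unmapped (0).

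Genes with at least 1 TPM in at least 2 of the 16 libraries were tested with limma 3.58.1 (R 4.3.3) on log2(TPM + 1), with trend and robust variances shared over all tissues and 1 group for the 4 plumule libraries. Adjusted p-values are Benjamini-Hochberg over 28562 genes. A gene was called at an adjusted p under 0.05 and a log2 difference of at least 1. The pseudocount shrinks differences of low genes, which are therefore understated, and, where a group is at 0, are no fold. Replicates were named biological by the study. The p-values rest on a spread shared by all 16 libraries and moderated across genes, not on the plumule and embryo libraries alone. Whole read counts were worked out from TPM and length (100% of values up to 100 reads within 0.1 of a whole number) and tested with edgeR 4.0.16 and DESeq2 1.42.0 as alternatives. The limma fit was tested on simulated data.

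Named genes were the 10 called genes per direction with the largest difference, a symbol, at least 100 TPM in the higher group and no overlap, and within lists the called members with the largest differences. Other list members and OsDT11 were named after their values were seen. Named sites were the 8 per direction with the largest difference that passed the depth, flag and agreement limits given in the text. Sites of list genes differing by at least 0.2 were added. The comparison and the gene lists were chosen with earlier results of these data known. A list of m6A enzymes matched no symbol and was not used.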

Additional observations from a re-analysis of the deposited data

Results flagged for a closer look

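Of 91 groups of 4 plumule libraries examined (the named genes and the summed lists), 5 had 1 library apart from the other 3, near the 1 in 20 that chance gives. OsEnS-115 stood at 0.0971 TPM in 1 light plumule library and at 0.353 to 0.403 TPM in the others, with a gap of 0.834 of the range. OsEnS-51 stood at 0.270 TPM in 1 light library and at 0 in the others (gap of 1 of the range). OsTIP3 (Os10g0492600) stood at 1.74 TPM in 1 dark library and at 2.46 to 2.54 TPM in the others (gap 0.894). GA20OX1 (Os03g0856700), a gibberellin synthesis enzyme, stood at 14.8 TPM in 1 dark library and at 12.5 to 12.9 TPM in the others (gap 0.842), against 13.8 and 14.2 TPM in embryo. OsSAUR8 stood at 59.0 TPM in 1 light library and at 53.0 to 53.6 TPM in the others (gap 0.902). None of the 5 was called between light and dark plumules (limma, adjusted p = 1 for each).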

How the results depend on the processing

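Counts of called genes kept within 1.5 times of the values above under most settings. Without each library in turn, 9182 to 9382 genes were called, 6496 to 6568 higher and 2684 to 2817 lower. The count of lower genes moved to 5030 with edgeR and to 4915 with DESeq2, and 8672 of the genes called by limma were also called by edgeR. With the replicate number as a block 9354 genes were called. No source here links same-numbered libraries beyond the number. Their deviations correlated at 0.0915 to 0.171, which with 2 libraries per tissue cannot decide whether they were paired. The block was therefore not read as a pairing. Of 1328 values of 74 named genes under other settings, 1325 kept direction and call, and OsHAP3D became called at -1.52 (pseudocount 0.1), -2.72 (edgeR) and -3.00 (DESeq2). The cause of these changes was not tested.

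The m6A values moved with depth and flag. The mean difference was -0.0142 over sites flagged in at least 1 tissue, -0.0392 in all 3, and -0.0318 in all 3 at a depth of at least 100 (added after seeing the data). Sites past 0.2 numbered 10818 at a depth of 50 (4618 higher, 6200 lower), 39405 at 5 (18217, 21188) and 3332 when flagged in all 3 (875, 2457), with 45124 (20474, 24650) past 0.1 and 13883 (6238, 7645) past 0.3. At depths of 50 and 5 the 5′ UTR gave 0.00747 and 0.0285, the intron 0.00136 and 0.0106, and motifs outside the classes -0.00621 and 0.00791, while the 3′ UTR gave -0.0312 at 5. Over sites flagged in at least 1 tissue the coding sequence gave 0.0172, the 3′ UTR -0.0433, the intron -0.0116, DRACH -0.0212, -RAC- -0.0206 and GGAU- -0.0469. Flagged in all 3, the 5′ UTR gave -0.0207, the coding sequence 0.00279, the 3′ UTR -0.0521, the intron -0.0454, DRACH -0.0429, -RAC- -0.0410, GGAU- -0.0571, -GAU- -0.0297 and the other motifs -0.0154. The Spearman correlation with expression was -0.261 there, -0.229 at a depth of at least 100, and -0.244 with light alone and with dark alone (all added after seeing the data). Pooled fractions without replicates limit every m6A value, and 2 embryo libraries limit the expression tests.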
